A study of Rattus norvegicus with 4 samples.

Results

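Mast cells of the rat abdominal fascia were picked out of single-cell RNA sequencing data by the UMIs (unique molecular identifiers, counted transcripts) of a few genes. A cell was taken as a mast cell when it held at least 2 UMIs of Cpa3, which encodes carboxypeptidase A3 of the mast cell granule, and at least 1 UMI of Kit, Ms4a2 or Hdc. It also had to hold no UMI of Cd3d, Cd3e or Cd3g, which encode the CD3 subunits of the T cell receptor complex. UMIs of the macrophage complement genes C1qa, C1qb and C1qc had to be fewer than 10 per 10000 UMIs. This gave 108 mast cells among 34904 cells that had at least 300 genes and at most 20% mitochondrial UMIs. The fascia lay under the skin of the abdominal midline, at the acupoints, and came from rats in which dysentery had been induced with Salmonella. The acupuncture group (2 libraries) was treated with acupuncture after the induction, and the dysentery group (2 libraries) was not, so that both groups carried the infection. The labels give no strain, age, sex, time point or number of rats per library. Groups follow the library titles, whereas the treatment field of the labels names the opposite group for all 4 libraries, and the sign of every difference between the groups would turn if that field were right. Where 4 values are given in a row, they stand in the order acupuncture replicate 1, acupuncture replicate 2, dysentery replicate 1 and dysentery replicate 2.

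Mast cells are tissue-resident cells of the immune system that develop under Kit, the receptor of stem cell factor, and under the transcription factors Gata2 and Mitf. They store histamine, which Hdc makes from histidine, and serine proteases bound to the proteoglycan serglycin in granules, and release them when antigen cross-links IgE on the receptor FcεRI, of which Ms4a2 encodes the beta chain. In connective tissue, they sit beside vessels and nerves and carry chymases, tryptases and carboxypeptidase A3, and they can also release lipid mediators and cytokines without emptying their granules. The study placed its needles in such connective tissue, and the mast cells there were compared between treated and untreated rats.

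The promoters of 5 granule protease genes are printed because Cpa3 is the main gate gene and the other 4 were among the genes most raised in mast cells. Each is the run of 250 bases before the transcription start from RefSeq (build GRCr8), written 5′ to 3′ on the gene's own strand. Capitals mark GATAA on either strand (GATAA or TTATC), a core that GATA factors such as Gata2 can bind. The Mcpt1l1 promoter is chr15:33876896-33877145 on the minus strand, that of Cma1 chr15:33390134-33390383 on the minus strand, that of Tpsab1 chr10:14867303-14867552 on the minus strand, that of Tpsb2 chr10:14886060-14886309 on the plus strand and that of Cpa3 chr2:104673238-104673487 on the minus strand.
Mcpt1l1: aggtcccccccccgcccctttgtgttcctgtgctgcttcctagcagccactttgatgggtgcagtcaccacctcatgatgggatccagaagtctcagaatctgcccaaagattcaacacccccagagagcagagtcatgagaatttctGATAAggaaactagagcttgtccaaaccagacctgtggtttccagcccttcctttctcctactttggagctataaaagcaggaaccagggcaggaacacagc
Cma1: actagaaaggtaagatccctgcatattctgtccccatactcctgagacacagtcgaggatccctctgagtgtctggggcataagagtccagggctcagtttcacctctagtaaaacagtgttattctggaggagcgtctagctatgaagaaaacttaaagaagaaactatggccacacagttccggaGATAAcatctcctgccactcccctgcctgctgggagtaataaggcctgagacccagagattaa
Tpsab1: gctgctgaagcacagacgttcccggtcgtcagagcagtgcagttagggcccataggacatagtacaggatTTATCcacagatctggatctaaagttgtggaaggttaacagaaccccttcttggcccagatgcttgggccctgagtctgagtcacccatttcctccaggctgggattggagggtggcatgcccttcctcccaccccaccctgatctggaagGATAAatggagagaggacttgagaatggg
Tpsb2: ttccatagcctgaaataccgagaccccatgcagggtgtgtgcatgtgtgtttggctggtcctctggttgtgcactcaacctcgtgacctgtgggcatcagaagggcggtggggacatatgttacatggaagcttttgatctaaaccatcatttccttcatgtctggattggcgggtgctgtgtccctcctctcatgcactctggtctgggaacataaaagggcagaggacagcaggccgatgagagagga
Cpa3: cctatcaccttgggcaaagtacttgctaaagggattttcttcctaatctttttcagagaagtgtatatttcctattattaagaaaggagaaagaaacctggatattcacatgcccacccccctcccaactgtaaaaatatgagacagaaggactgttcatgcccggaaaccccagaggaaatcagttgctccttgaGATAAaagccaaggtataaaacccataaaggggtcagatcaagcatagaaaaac
The Tpsab1 promoter held 2 such matches, those of Mcpt1l1, Cma1 and Cpa3 held 1 each, and that of Tpsb2 held 0. Of the 25 genes named below as most raised in mast cells, 19 matched the table by symbol with 21 promoters, and 6 of these (28.6%) held a match. Of all 33469 promoters of the same length in the table, 7854 (23.5%) held one.

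The 4 libraries were sequenced to 53066666 to 93897006 UMIs. Mast cells numbered 18 of 8248 cells, 70 of 9252, 6 of 6665 and 14 of 10739, and no mast cell barcode occurred in more than 1 library, although 15 to 30 barcodes of filtered cells were shared by each pair of libraries. They were shallower than the other cells. Their median depth was 2294.5, 2943.5, 1917.5 and 1435.5 UMIs, against 7634, 9377, 6786 and 7084 UMIs over all filtered cells. Median mitochondrial content in mast cells was 4.76% and 5.61% with acupuncture and 13.6% and 7.77% without, against 3.13% to 3.71% over all filtered cells. Their UMIs summed to 65228, 256073, 13477 and 43997, so that the acupuncture replicate 2 library gave most of the mast cell reads and the dysentery replicate 1 library the fewest.

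Cpa3, the first gene of the gate, stood at a median of 27, 39.5, 22.5 and 27 UMIs per mast cell, and 1 of the 108 had between 2 and 4. Just outside it, 10, 37, 6 and 6 cells held at least 2 Cpa3 UMIs but none of Kit, Ms4a2 and Hdc, with a median of 2 in every library and 0, 3, 0 and 0 cells at 10 or more. Another 1, 3, 1 and 6 cells held 1 Cpa3 UMI together with Kit, Ms4a2 or Hdc. A minimum of 1 Cpa3 UMI would have given 19, 73, 7 and 20 mast cells in place of 18, 70, 6 and 14. The limit on T cell genes took out 0, 3, 0 and 0 further cells and the limit on macrophage genes 0, 6, 0 and 1. Among the gate genes, which are described only, Ms4a2 was found in 104 of the mast cells, Hdc in 75 and Kit in 19. Kit reached 3, 17, 0 and 2 UMIs in all, so that the receptor that defines the lineage was not seen in most cells. A cell of 12321 UMIs also held 0, and the part of depth was not tested.

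Granule proteases made up a large part of the RNA of these cells. Mcpt1l1, Cma1, Cpa3, Tpsb2, Tpsab1 and Tpsg1 together made up a median of 11.8% of a mast cell's UMIs, with a range of 0.0363% to 27.6%. This share includes the gate gene Cpa3 and leaves out the protease Mcpt9. Mcpt1l1, a chymase-type protease of the rat Mcpt1 family, stood at 72530.2, 65802, 57357 and 79574 CPM (UMIs scaled to a common library total) in the summed mast cells, against 5.97, 30.5, 5.89 and 6.18 CPM in all other cells of the same libraries. Cma1, the chymase of connective tissue mast cells, stood at 21340.5, 27918, 27306 and 44185 CPM against 2.58, 16.9, 2.58 and 4.33. In every library both genes lay far above the other cells. Reads of Mcpt1l1 cannot be told with certainty from those of near-identical family members, and the rows Mcpt1l3, Mcpt4 and Ctsg held 0 UMIs in mast cells. Mcpt1, Mcpt2, Mcpt8 and 6 other listed proteases had no row under their symbol and were not analysed here.

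The tryptases followed. Tpsb2 stood at 5779.7, 6080.3, 12466 and 12092 CPM in mast cells against 0.288, 3.19, 0.622 and 1.12 in other cells, and Tpsab1 at 2453, 3788, 2671 and 18956 CPM against 0.418, 2.21, 0.583 and 1.57. Tpsb2 was lower in both acupuncture libraries than in both dysentery libraries, while Tpsab1 stood out in the dysentery replicate 2 library alone. As the tryptase genes are close relatives, their split between rows is uncertain. Chymase and tryptase occurred in the same cells: Mcpt1l1 and Cma1 were both found in 107 of 108 cells, both tryptases in 82, Tpsb2 alone in 13, Tpsab1 alone in 6 and neither in 7. Of the 68 cells with at least 2000 UMIs, 66 held a tryptase. A gene was counted as found from 1 UMI on. By that count, Mcpt1l1 was also found in 6.54%, 17.0%, 4.16% and 5.71% of the cells at or above the macrophage limit of the gate. Tpsb2 was found in 0.645%, 3.16%, 0.537% and 1.45% of them. A single UMI of these genes thus does not mark a mast cell. Both chymases and at least 1 tryptase were found together in 101 mast cells. Carboxypeptidase was required by the gate, so its presence in these cells is no finding. Mast cells of connective tissue are known to carry all 3 classes of protease.

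**Figure D1:**
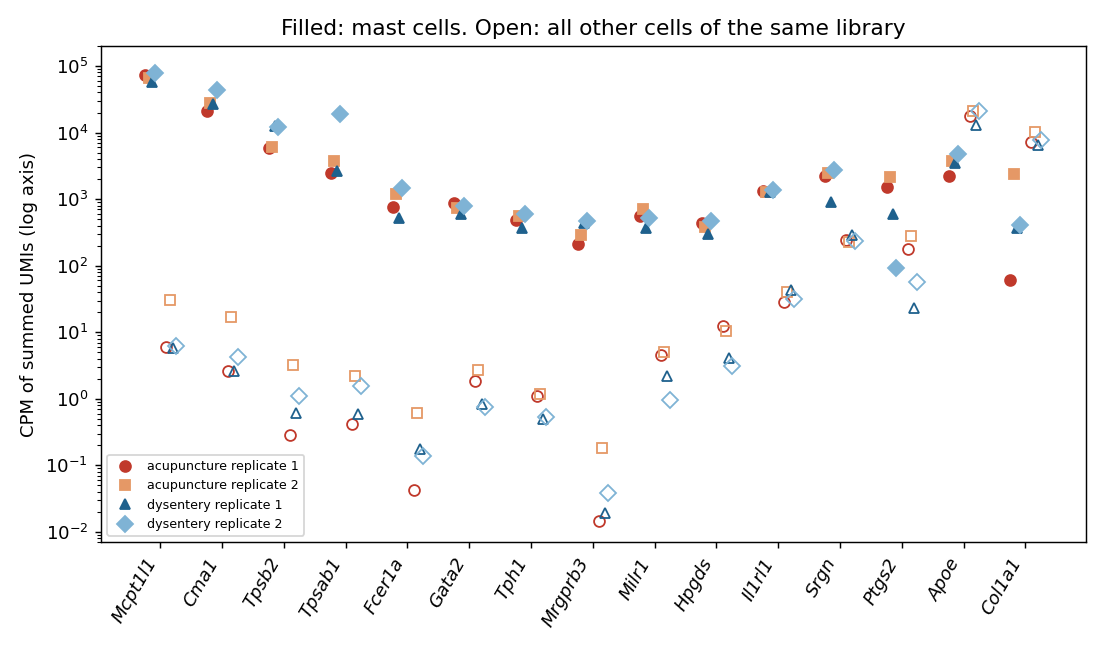
CPM (log axis) of 15 genes in the summed UMIs of mast cells (filled symbols) and of all other cells (open symbols), by library. From Mcpt1l1 to Srgn the filled symbols lie above the open ones in all 4 libraries, while Apoe, a macrophage gene, and Col1a1, a fibroblast collagen, lie below them.

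Each library's mast cells were then compared with its other cells in edgeR's quasi-likelihood test over 13163 genes, with the library as a block and Benjamini-Hochberg adjustment, leaving out the gate genes. Since the cells were chosen by mast cell genes, this fit describes what went with the gate and is no independent support for it. In it, 1752 genes (13.3%) passed an adjusted p of 0.05, of which 547 (4.16%) were higher in mast cells and 1205 (9.15%) lower. Without acupuncture replicate 2, which holds most of the mast cell UMIs, 881 passed. The 25 most raised symbols with at least 50 CPM in mast cells and the same direction in all 4 libraries ran from Tpsb2, at a log2 difference of 12.84 ± 0.53 (SE), to Adgrg3, at 7.23 ± 0.58. The median log2 difference over all genes tested was -0.58, or -0.06 with genes that had no mast cell UMI set to the bound that 3 UMIs allow.

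Genes of the IgE receptor complex were split between raised and shared members. Fcer1a, the IgE-binding alpha chain, stood at 751, 1207, 519 and 1455 CPM against 0.0432, 0.608, 0.175 and 0.140 (log2 11.95 ± 0.55) and was found in 93 of the 108 cells. Among C1q-rich cells, those at or above the macrophage limit of the gate, it was found in 25 of 5172 cells of the acupuncture and 1 of 2059 cells of the dysentery libraries, at median depths of 6580 to 10144.5 UMIs. The list of the receptor and its signalling had 18 tested genes, with a median of 0.72. Of these, 5 were higher and 1 lower, against 4.16% and 9.15% of all genes tested. The adaptors Lat2 (5.27 ± 0.39) and Lat (3.58 ± 0.36), the adaptor Lcp2 (1.71) and the kinase Prkcd (1.87) were higher, and the kinase Fyn (log2 -1.34, adjusted p = 0.0399) was lower. The common gamma chain Fcer1g (0.53 ± 0.35, adjusted p = 0.367) and the kinases Lyn (0.60) and Syk (-0.05), which macrophages and other leukocytes also use, did not pass.

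Genes for making and packing amines were raised. Tph1, which makes the serotonin precursor, stood at 491, 555, 371 and 591 CPM against 1.11, 1.19, 0.505 and 0.533 (log2 8.98 ± 0.46), and Slc18a2, the vesicular transporter that loads amines into granules, at 92.0, 102, 148 and 136 CPM against 0.187, 0.282, 0.233 and 0.114 (log2 8.78 ± 0.49). Tph1 was found in 74 cells. Of 12 tested genes for storage of amines and proteoglycan, 7 were higher and 1 lower (all genes: 4.16% and 9.15%). Their median was 1.68. Srgn, the serglycin core to which proteases bind, was raised by 2.74 ± 0.38, Ndst2, which sulphates its heparin chains, by 4.40 ± 0.36, and Rab27b, which moves secretory granules, by 6.53 ± 0.69 on the log2 scale. Hs3st1, another sulphotransferase, was lower (-1.47).

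Some receptors through which mast cells sense their surroundings were raised, and of those given first, Mrgprb3 and Milr1 stood among the 25 most raised genes. Mrgprb3, a Mas-related G protein-coupled receptor of the family that binds cationic peptides, stood at 215, 285, 445 and 477 CPM against 0.0144, 0.185, 0.0194 and 0.0381 (log2 11.84 ± 0.49) and was found in 54 cells. Il1rl1, the receptor of IL-33, stood at 1334, 1265, 1261 and 1386 CPM against 28.4, 40.1, 43.5 and 31.9 (log2 4.90 ± 0.40). The inhibitory receptor Milr1 stood at 552, 711, 371 and 523 CPM against 4.57, 5.10, 2.18 and 0.977 (log2 7.30 ± 0.44). Levels of Il1rl1 lay close together in the 4 libraries. Of 24 tested activating and inhibitory receptors in the list, 9 were higher and 3 lower (all genes: 4.16% and 9.15%). Their median was 0.89, or 1.51 with 5 undetected genes at their bound. The raised ones included the purine receptors P2rx1 (4.37) and Adora3 (3.52) and the prostaglandin E receptor Ptger3 (2.24). The lower ones were the inhibitory Fc receptor Fcgr2b (-3.53 ± 0.63), Tlr2, which recognises bacterial lipoproteins, and the complement receptor C3ar1. Tlr2 had 0 mast cell UMIs and was at least 4.98-fold lower than in other cells, and C3ar1 at least 2.57-fold. Tacr1, the substance P receptor, also had 0 UMIs in mast cells, a count that allows up to 7.92 CPM.

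Lineage factors and a set of vesicle genes completed the profile. Gata2 stood at 874, 730.3, 594 and 796 CPM against 1.86, 2.70, 0.836 and 0.749 (log2 8.74 ± 0.47), and Tal1, its partner in blood cell programmes, at 215, 129, 297 and 114 CPM against 0.894, 1.10, 0.291 and 0.419 (log2 7.41 ± 0.39). Of 12 tested lineage factors, 3 were higher and 2 lower (all genes: 4.16% and 9.15%), with a median of 0.44. The third raised one was Meis2 (2.84), and the lower ones were Spi1 (-1.48) and Bhlhe40 (-1.47). Mitf, which fibroblasts and macrophages also express, did not pass (0.31 ± 0.41, adjusted p = 0.669). Among the 25 most raised genes were Rab3b (log2 10.00), Sv2b (9.54) and Syngr1 (8.11), which belong to secretory and synaptic vesicles, and Mlph (7.76), a linker of Rab27 vesicles to myosin. Others were Rgs13 (9.34), a brake on G protein signals, the zinc transporter Slc30a2 (7.53), the gap junction protein Gja3 (11.48), Slc45a3 (7.78), Bex4 (7.85), Cracd (9.05) and AC103574.1 (11.76).

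Of 11 tested lipid mediator genes, 2 were higher and 1 lower, with a median of -0.18. Over all genes tested, 4.16% were higher and 9.15% lower, so the lower count was near that share. Hpgds, which makes prostaglandin D2, stood at 445, 387, 297 and 477 CPM against 12.4, 10.4, 4.06 and 3.16 (log2 5.57 ± 0.39). Ptgs2, the inducible cyclooxygenase, stood at 1518, 2187, 594 and 90.9 CPM against 179, 282, 23.2 and 56.5 (log2 2.65 ± 0.41). Ltc4s, which makes leukotriene C4, held 1, 2, 0 and 1 UMIs and was lower (-4.29 ± 0.67), and Alox5, at the head of the leukotriene pathway, did not pass (0.70 ± 0.47, adjusted p = 0.376).

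Of 22 tested cytokine and chemokine genes, 3 were higher in mast cells and 11 lower (all genes: 4.16% and 9.15%). Their median was -2.31, or -1.86 with 3 undetected genes at their bound. The higher ones were Tnf (153, 820.1, 297 and 68.2 CPM against 17.9, 19.8, 27.8 and 10.2; log2 3.75 ± 0.45), the IL-6 family cytokine Lif (log2 4.59 ± 0.40) and the monocyte attractant Ccl2 (log2 1.86 ± 0.35). Against C1q-rich cells alone, the Ccl2 difference was 0.79 and did not pass. The lower ones included the neutrophil attractants Cxcl1 (-3.92 ± 0.55) and Cxcl2 (-4.38 ± 0.54), and Ccl7 (-5.63 ± 0.64), Ccl4 (-4.69 ± 0.58), Il10 (-6.20 ± 0.90) and Il1b (-3.39 ± 0.55). The alarmin Il33 was lower than in all other cells (-2.78 ± 0.43), but stood at 0.21 against C1q-rich cells. The type 2 cytokines Il4, Il5, Il9 and Il13 and the growth factor Csf2 had 0 UMIs in mast cells, which allows up to 7.92 CPM of each.

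Markers of fibroblasts, macrophages and T and NK cells were lower in mast cells, while other lists were mixed. The gate had left out cells with Cd3 UMIs or with C1q UMIs at its limit, and the other cells kept them. Lower macrophage and T cell genes thus follow in part from the gate and are no independent support for it. All 10 fibroblast genes were lower, with a median of -3.30, and so were the 8 tested macrophage genes outside the gate (median -4.37, or -3.84 with the undetected ones at their bound) and the 6 tested T and NK cell genes (-12.36, or -2.24). Over all genes tested, 9.15% were lower. The lower share was 3 of 7 tested genes for neutrophils, 2 of 5 for B cells and 2 of 10 for dendritic cells. It was 2 of 6 for vascular endothelium, 1 of 3 for erythrocytes and platelets and 0 of 1 for adipocytes and muscle. With undetected genes at their bound, the medians were -0.21, 0.18, -1.08, -0.21, 1.00 and -3.00 in that order. Summed genes of erythrocytes and platelets stood at 613, 1468, 668 and 1546 CPM in mast cells against 815, 1820.2, 481 and 438 CPM in other cells, above them in both dysentery libraries. Most of the mast cell sum in every library was Pf4, a chemokine of platelets and macrophages. The basophil genes Prss34, Il4, Il13, Itga2 and Ccr3 held 0 UMIs, while Il3ra, which mast cells share, was higher (1.47 ± 0.37). The other 4 genes of the basophil list, Mcpt8, Mcpt8l2, Mcpt8l3 and Cd200r3, had no row under their symbol and could not be read. Of 3 tested basophil genes, 1 was higher and 0 lower (all genes: 4.16% and 9.15%), with a median of 2.29 at the bound. Whether the gate let in basophils was not tested. Cd79a, a B cell receptor gene, and Vwf, of endothelium, were also higher (2.59 ± 0.44 and 2.06 ± 0.66), while other genes of the B cells (Cd79b, Ms4a1 and Pax5) and of endothelium (Pecam1, Cdh5, Kdr and Emcn) held 0 UMIs. Cd79a held 3, 28, 0 and 1 UMIs, and without acupuncture replicate 2 its difference fell to 0.80 and did not pass. The 10 most lowered genes all had 0 mast cell UMIs. They were Cd163, Slc28a2, Fcgr1a, Cd209f, Clec4a1, Trem2, C6, Pid1, Lcn2 and Gzmm, and the bounds ran from Pid1, at least 8.91-fold lower, to the macrophage scavenger receptor Cd163, at least 18.6-fold.

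The 108 cells were not all alike. Most held few UMIs of other cell types, but in 1, 8, 0 and 2 cells, by library, the summed UMIs of the fibroblast, the macrophage (without Apoe) or the neutrophil list reached 40. In acupuncture replicate 2, 7 cells held 85 to 1306 fibroblast UMIs and 1 held 49 neutrophil UMIs, in dysentery replicate 2 there were cells with 75 and 183 fibroblast UMIs, and in acupuncture replicate 1 a cell of 12856 UMIs held 327 macrophage UMIs. The cell with 1306 fibroblast UMIs had 2 Cpa3 UMIs and 1 each of Mcpt1l1 and Cma1, the weakest entry to the gate. The share of mast cells and the genes called between the groups are also given without these cells. A cell of acupuncture replicate 1 held 39 UMIs of the protease Mcpt9, 14 of Hdc and 6 of Cpa3, but 0 of Mcpt1l1, Cma1, Tpsb2, Tpsab1 and Fcer1a, and Mcpt9 was found in no other mast cell. In acupuncture replicate 2, 2 cells of 7692 and 4997 UMIs held 45 and 33 UMIs of the mitotic genes, together with 526 and 338 of Mcpt1l1. Over the cell cycle list, 6 of 15 tested genes were higher in mast cells than in other cells, against 4.16% of all genes tested. The median of the list was 0.80, or 1.07 with the undetected genes at their bound. The levels of Cdk1, Ccnb1, Ccna2 and Cenpf came from these 2 cells alone.

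**Figure D2:**
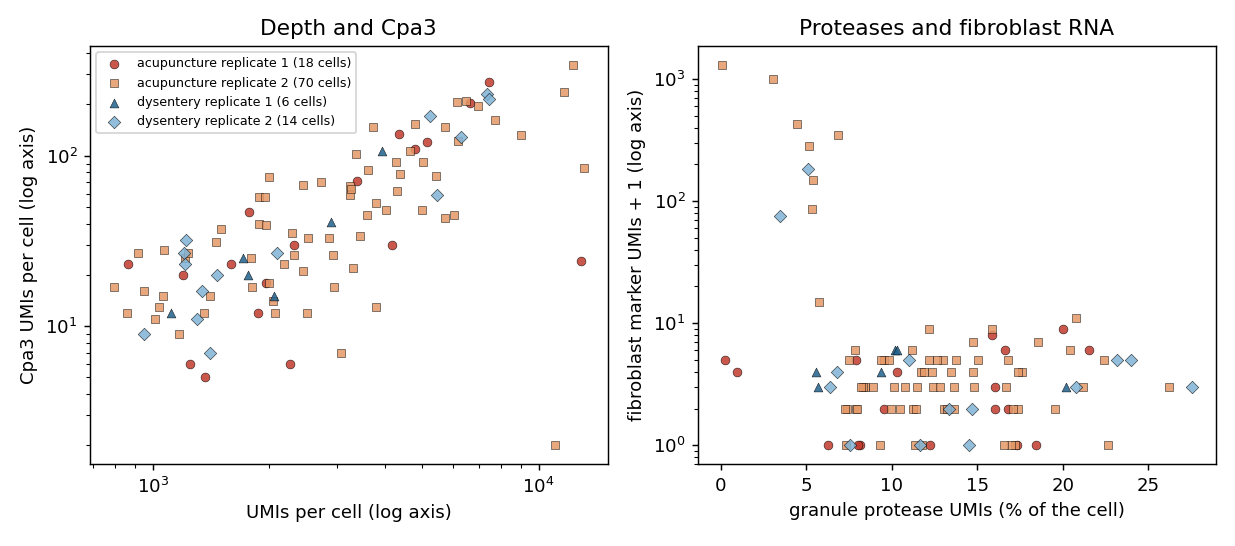
Each point is 1 mast cell, coloured by library. Left, Cpa3 UMIs against all UMIs of the cell (both log axes). Right, UMIs of 10 fibroblast genes plus 1 (log axis) against the share of granule proteases (without Mcpt9) in the cell's UMIs. Here, 9 cells with 75 to 1306 fibroblast UMIs stand above the rest.

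Mast cells made up 0.218% and 0.757% of filtered cells in the acupuncture libraries and 0.0900% and 0.130% in the dysentery libraries. Both acupuncture libraries lay above both dysentery libraries, but they differed more from each other than acupuncture replicate 1 did from the dysentery libraries. The 95% Clopper-Pearson intervals, which cover counting error only, were 0.129% to 0.345%, 0.590% to 0.955%, 0.0330% to 0.196% and 0.0713% to 0.219%, so that acupuncture replicate 1 overlapped both dysentery libraries. The means were 0.487% ± 0.381 and 0.110% ± 0.0285 (SD, n = 2), a difference of 0.377 percentage points. A two-sided exact permutation test gave p = 0.333, the smallest that 2 against 2 libraries allow. Without acupuncture replicate 2 the difference was 0.108 points, and without acupuncture replicate 1 it was 0.646. Without the cells rich in RNA of other types the shares were 0.206%, 0.670%, 0.0900% and 0.112%, a difference of 0.337 points.

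**Figure D3:**
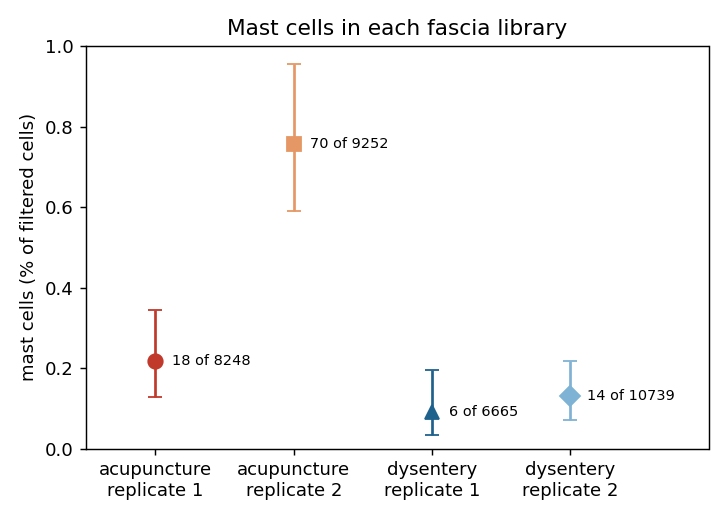
Mast cells as a percentage of filtered cells in each library, with 95% Clopper-Pearson intervals. Acupuncture replicate 2 (70 of 9252 cells) stands above the other 3 libraries, whose intervals overlap.

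Within mast cells, the summed UMIs of the acupuncture and the dysentery libraries were compared in edgeR's quasi-likelihood test over the 715 genes with enough counts. None passed after Benjamini-Hochberg adjustment (0 genes, 0%), while 77 (10.8%) had an unadjusted p under 0.05, 52 of them higher with acupuncture (7.27%) and 25 lower (3.5%). DESeq2 called 6, and 39 passed in edgeR without acupuncture replicate 1. Both acupuncture libraries lay above both dysentery libraries in 168 of the 715 genes (23.5%) and below them in 145 (20.3%). The labels do not say that libraries came from separate animals, so these p-values measure only the spread between libraries, and the dysentery side rests on 20 cells. Values below are therefore given as levels, with the direction they had in these libraries.

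Among the 10 genes of smallest p were Egr1, Fosb, Junb and Atf3, which belong to the immediate early genes that cells transcribe within minutes of a stimulus. Egr1 stood at 3955, 4409, 1113 and 523 CPM (log2 2.43 ± 0.39, adjusted p = 0.147), Fosb at 3710.1, 3675, 1113 and 818 CPM (1.94 ± 0.25, adjusted p = 0.106) and Junb at 1349, 1917, 297 and 227 CPM (2.67 ± 0.38, adjusted p = 0.106). The stress-responsive factor Atf3 stood at 506, 519, 74.2 and 68.2 CPM, from 33, 133, 1 and 3 UMIs (2.82 ± 0.40, adjusted p = 0.106). The groups did not overlap in these 4 genes, but the genes were picked by small p from the same comparison. Over all 715 genes, 23.5% had both acupuncture libraries on top and 20.3% had both below. Over the whole list of immediate early genes, 19 genes were tested and 0 passed. All 19 had a positive log2 difference (345 of all 715 genes), with a median of 1.76 (median of all 715 genes, -0.02). In 18, both acupuncture libraries lay above both dysentery libraries, against 23.5% of all 715 genes. Summed over the list, mast cells stood at 31980.1, 35201, 14692 and 6909.6 CPM, and the other cells of the same libraries at 24112, 26653, 13856 and 8625 CPM, in the same order of groups.

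Genes of the NF-kB response were also among those of smallest p. Nfkbiz, an inducible co-regulator of NF-kB target genes, had the smallest p of all, with 1257, 1183, 148 and 182 CPM (log2 2.79 ± 0.32, adjusted p = 0.106). Nfkbia, the feedback inhibitor, stood at 705, 890.4, 148 and 182 CPM (2.19 ± 0.35, adjusted p = 0.147), and Tnfaip3, another brake on the pathway, at 567, 363, 74.2 and 114 CPM (2.09 ± 0.47, adjusted p = 0.282). All 4 tested genes of this list had both acupuncture libraries on top, against 23.5% of all 715 genes. Their median was 2.14, and 0 passed. Summed over the list, mast cells stood at 3342, 3312, 965 and 818 CPM and the other cells at 2058, 2789, 1475 and 659 CPM, so that both acupuncture libraries lay on top in the other cells too. Of 6 tested heat shock genes, 0 passed and 5 had both acupuncture libraries on top (23.5% of all 715 genes). The median of the 6 was 1.14, and Dnajb1 stood at 459.9, 461, 148 and 90.9 CPM. The summed heat shock list stood at 5029, 5198, 2300.2 and 2659 CPM in mast cells and at 5140.3, 5887, 4068 and 2965 CPM in the other cells, with the acupuncture libraries on top in both. In the glucocorticoid response list, 1 gene was tested, Mt2A (0.79 ± 0.39, adjusted p = 0.52).

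None of the tested genes of mediators that mast cells make on demand passed between the groups, and their directions were mixed. Ptgs2 held 99, 560, 8 and 4 UMIs, or 1518, 2187, 594 and 90.9 CPM (log2 2.75 ± 0.82, adjusted p = 0.357), and the dysentery libraries lay far apart. It was found in 14 of 18, 54 of 70, 4 of 6 and 3 of 14 mast cells. With each cell thinned to 2000 UMIs, Ptgs2 was found in 10 of 10, 41 of 49, 2 of 3 and 1 of 6 mast cells. Among C1q-rich cells thinned likewise, it was found in 2.89%, 3.70%, 1.40% and 0.917%. A two-sided exact permutation test of the thinned mast cell shares gave p = 0.333, the smallest that 2 against 2 libraries allow. Ccl2 stood at 6025, 7064, 3339 and 1455 CPM (1.48 ± 0.42, adjusted p = 0.348), and Lif at 199, 219, 0 and 45.5 CPM, from 13, 56, 0 and 2 UMIs. Tnf held 10, 210, 4 and 3 UMIs, with the acupuncture libraries on either side of dysentery replicate 1 (153, 820.1, 297 and 68.2 CPM), and without acupuncture replicate 2 its log2 difference was 0.00. Of 5 tested cytokines and chemokines, 0 passed, with a median of 1.48. Both acupuncture libraries were on top in 2 of them, against 23.5% of all 715 genes. Of 4 tested lipid mediator genes, 0 passed and 1 had a positive difference, with a median of -0.18, and Alox5ap, the 5-lipoxygenase activator, pointed the other way from Ptgs2 (598, 609, 1484 and 909 CPM; -0.97 ± 0.34, adjusted p = 0.433).

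None of the tested genes of stored mediators passed in the comparison of the groups. Mcpt1l1 differed by -0.02 ± 0.26 on the log2 scale (adjusted p = 0.999) and Cma1 by -0.57 ± 0.33 (adjusted p = 0.571). Tpsb2 was lower in both acupuncture libraries (-1.08 ± 0.18, adjusted p = 0.162). The Tpsab1 difference of -1.84 ± 0.89 (adjusted p = 0.502) rested on dysentery replicate 2 and turned to 0.36 without it. Over 4 tested proteases the median was -0.82, over 5 genes of amine and proteoglycan storage 0.02, over 7 of the IgE receptor and its signalling -0.11, over 2 receptors -0.48 and over 3 lineage factors -0.08, with 0 passing in each list. Tph1 (0.02 ± 0.33), Gata2 (0.13 ± 0.30), Il1rl1 (-0.07 ± 0.24) and Fcer1a (-0.11 ± 0.55) had differences within their errors. S100a6, a calcium-binding protein, was lower in both acupuncture libraries, at 1717, 1695, 4304 and 4500.3 CPM (-1.40 ± 0.19, adjusted p = 0.106). ENSRNOG00000051885 and ENSRNOG00000003809, which have no symbol, completed the 10 genes of smallest p, both higher with acupuncture (2.67 ± 0.31 and 2.08 ± 0.39).

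**Figure D4:**
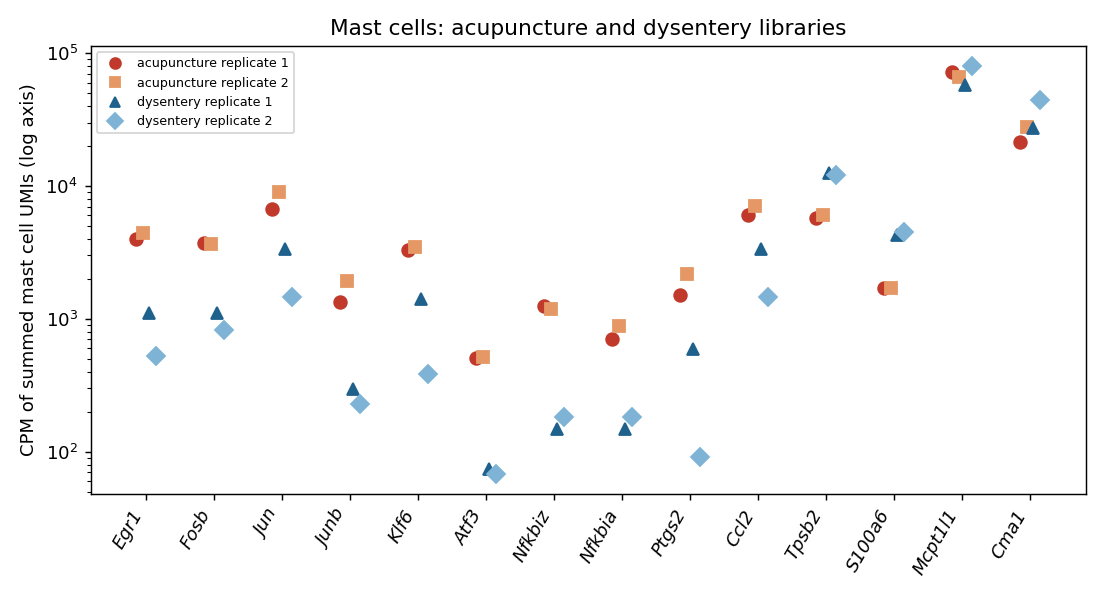
CPM (log axis) of 14 genes in the summed mast cell UMIs of each library. From Egr1 to Ccl2 both acupuncture libraries lie above both dysentery libraries, for Tpsb2 and S100a6 below them, and for the chymases Mcpt1l1 and Cma1 they overlap or lie close together.

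The RNA of other cells and the quality of the mast cells also varied between the libraries. Summed fibroblast markers stood at 675, 14738, 1484 and 6387 CPM in mast cells, and summed macrophage markers at 7359, 3987, 4897 and 5000.3 CPM. Without the mast cells rich in such RNA, a choice made after the data were seen, 18 of 551 tested genes passed (90 had an unadjusted p under 0.05). Of these, 15 were higher with acupuncture: ENSRNOG00000051885, Nfkbiz, Fosb, Egr1, Junb, ENSRNOG00000003809, Nfkbia, Rgs1, Atf3, Klf2, Klf6, Ddx5, Gadd45a, Ccl2 (log2 1.74, adjusted p = 0.0494 in edgeR) and Ptgs2 (log2 3.01 ± 0.54, adjusted p = 0.0372 in edgeR). The lower ones were Tnfaip8l2 (-2.90), S100a6 (-1.53) and S100a4 (-2.50). Of the 10 genes of smallest p named above, 9 were among the 18, Tpsb2 being the exception. This refit used the same libraries and most of the same cells as the main test, so the overlap is no independent support for these genes. With a mitochondrial limit of 10%, 13, 56, 2 and 11 mast cells remained and 0 genes passed. The part of depth, mitochondrial content and RNA of other cells in the differences between the groups was not tested otherwise.

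Whether mast cells differed from the other cells of the same libraries in how they went with the group was tested as an interaction over 13163 genes in edgeR's quasi-likelihood test. None passed (0 genes, 0%), with 237 (1.8%) at an unadjusted p under 0.05 and 0 in DESeq2. Without acupuncture replicate 2, dysentery replicate 1 or dysentery replicate 2, 5, 1 and 9 passed. The 5 genes of smallest p had 0 or 1 mast cell UMI in each dysentery library, so that their fitted values are no measure of size. Rcan1, a calcineurin regulator, held 8, 96, 0 and 0 UMIs, Tkt, an enzyme of the pentose phosphate pathway, 48, 28, 0 and 1, Hopx, a transcriptional co-regulator, 29, 4, 0 and 0, Axl, a receptor tyrosine kinase, 9, 30, 0 and 1, and the protease Mcpt9 39, 0, 0 and 0, the last from the cell described above. With 57474 dysentery mast cell UMIs, 0 UMIs allow up to 52.2 CPM, and a lower level in that group was not detectable at this depth.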

How the data were processed

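Each deposited matrix is a table of UMI counts by gene and cell, not normalized. Per the labels' protocols, fascia was digested with collagenase and elastase, red and dead cells were removed, and 10x 3′ libraries were made. The authors used Cell Ranger 6.0.1 and STAR, per the submitters' processing notes, which list GRCh38.p13 and mRatBN7.2 as builds and give neither a role. The deposited barcode and gene lists hold other content, namely names. Gene rows (30560) were kept by identifier. All 4 matrices were filtered and gated as the report states, with mitochondrial UMIs taken over 13 genes, and doublets were removed only in an alternative (Scrublet in scanpy 1.11.5). UMIs were summed per library for mast and other cells, since cells are no replicates. Sums were compared with edgeR 4.0.16 (quasi-likelihood test, TMM scaling, filterByExpr with a minimum count of 10) and Benjamini-Hochberg adjustment over all genes tested, at a threshold of 0.05, and with DESeq2 1.42.0 as an alternative. Errors of edgeR's log2 differences are approximate standard errors (SE) derived from its test. Each is the absolute log2 difference divided by the square root of the quasi-likelihood F statistic. For a gene with 0 UMIs, 3 UMIs over all mast cells gave the bound. The fit was tested on simulated counts with the same spread for every gene and large set changes. That test does not show how the fit performs on sums of so few cells. The cells, gene lists, promoters and tests were chosen with earlier results of these data known. Named genes were the 25 most raised and 10 most lowered with at least 50 CPM, 10 by smallest p between the groups and 5 by smallest p of the interaction, plus members of the lists; Ch25h, Rgs1 and other genes called without the mixed cells were added after their values were seen. Some of these genes are not reported here.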

Additional observations from a re-analysis of the deposited data

How the results depend on the processing

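The difference in mast cell share kept its sign in all 11 alternatives, from 0.108 to 0.646 percentage points. Between the groups, where the main test called 0 genes, DESeq2 called 6, no filter on low counts 47, leaving out the cells rich in RNA of other types (added after the data were seen) 18, and leave-one-out fits 0 to 39, the 39 without acupuncture replicate 1, where the lone acupuncture library is assumed to vary like the dysentery libraries. Of those 18 genes, DESeq2 shared 6 and the unfiltered fit 14. All of these fits used the same libraries, so their overlap is no independent support. With the replicate number as a block 36 genes passed, 15 of them among the 18, but same-numbered libraries gave a correlation of 0.32 over 715 genes in only 2 pairs, so the numbers were not taken as a pairing. Between mast and other cells, 1037 genes passed in DESeq2 and 881 to 1546 in leave-one-out fits, against 1752, the 881 without acupuncture replicate 2. The interaction called 0 to 9 genes in leave-one-out fits (5 without acupuncture replicate 2, 1 without dysentery replicate 1 and 9 without dysentery replicate 2). The Tpsab1 difference between the groups ran from -2.56 to 0.36 in leave-one-out fits and turned without dysentery replicate 2, and that of Il33 turned to 0.21 against C1q-rich cells. Of 243 refits of 19 genes named between the groups, 173 kept their side of the threshold, 69 came to pass and that 1 turned; of 820 for 59 genes against other cells, 792 kept it, 27 no longer passed and 1 turned; of 60 for the 5 interaction genes, 56 kept it and 4 came to pass. The cause of these shifts was not tested. The 20 dysentery mast cells, with 57474 UMIs in all, limit every comparison of the groups.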

Other observations

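Further genes, chosen after their values were seen, add to the profile of the mast cells. Ch25h, which makes the oxysterol 25-hydroxycholesterol, stood at 506, 558, 223 and 0 CPM in mast cells against 10.4, 12.3, 5.73 and 1.51 CPM in the other cells (log2 5.13 ± 0.45, adjusted p = 2.38e-28 in edgeR's quasi-likelihood test) and held 33, 143, 3 and 0 UMIs. Cd72, best known as an inhibitory co-receptor of B cells, stood at 552, 551, 742 and 864 CPM against 12.6, 17.9, 18.7 and 14.5 CPM (log2 5.09 ± 0.39) and was found in 72 of the 108 cells. Tesc, a calcium-binding protein, was higher by 6.11 ± 0.39 on the log2 scale, Ramp3, a partner of the calcitonin family receptors, by 3.68 ± 0.36, and Cd93 by 3.59 ± 0.36. Pf4, a chemokine of platelets and macrophages, stood at 552, 1351, 594 and 1159 CPM against 676, 782, 126 and 168 CPM and did not pass (1.00 ± 0.38, adjusted p = 0.0606 in edgeR), and Gp9, a platelet glycoprotein, held 4, 27, 0 and 15 UMIs in 32 mast cells against 0.101, 0.0977, 0.233 and 0.0254 CPM in the other cells.

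Cd74, the invariant chain of MHC class II, stood at 1609.7, 70.3, 1781 and 318 CPM in mast cells against 4459, 7014, 8364 and 8791 CPM (log2 -4.04 ± 0.41), with acupuncture replicate 2 the lowest. Kitlg, the ligand of Kit, held 0, 4, 0 and 0 UMIs and was lower in mast cells (-2.08 ± 0.71, adjusted p = 0.0282 in edgeR).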
